A study of Homo sapiens with 6 samples.

Results

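The aldo-keto reductases are enzymes that use NADPH to reduce aldehydes and ketones to alcohols, and 8 of their genes were examined here: AKR1C1, AKR1C2, AKR1C3, AKR1C4, AKR1B1, AKR1B10, AKR1A1 and AKR7A2. They were found by gene symbol in the deposited table of Clariom D expression values. Each symbol matched 1 probe set, the group of probes summarized into 1 value per array, so the 8 genes are 8 of the 135750 probe sets for transcripts. The list was selected on expression differences between the lines seen in earlier results of these arrays, so its values are given as a description of the family and support nothing beyond it. The arrays hold total RNA of MCF10.AT1, preneoplastic human breast epithelial cells derived from MCF10A with an activated HRAS, and of MCF10.AT1-R, 1 line derived from it by selection in stepwise rising fluvastatin, a statin that inhibits HMG-CoA reductase. The doses named for this selection are 1, 5 and 20 µM, and the MCF10.AT1 samples are labelled untreated and sensitive, although the treatment text of the labels names fluvastatin on every sample. Whether MCF10.AT1-R was in fluvastatin when RNA was taken is not given in the sources used here. Each line has 3 arrays, labelled as biological replicates: A01, A02 and A03 for MCF10.AT1 and B02, B03 and B04 for MCF10.AT1-R. The study removed A03 as an outlier, so A01 and A02 were compared with B02, B03 and B04, and A03 is given apart.

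The family is known for the chemistry of steroid hormones, prostaglandins, retinoids and reactive aldehydes. AKR1C enzymes act as ketosteroid reductases that set how much active progesterone or androgen a cell holds, AKR1B enzymes reduce sugar aldehydes and retinaldehyde, and AKR1A1 and AKR7A2 are aldehyde reductases of broad use. Several members, among them AKR1C1, AKR1C2, AKR1C3 and AKR1B10, are known targets of NRF2, the transcription factor that KEAP1 restrains until cells meet electrophiles or oxidants.

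The AKR1C genes arose by duplication and lie side by side on chromosome 10. Their upstream sequences are shown because they let the 3 genes with the largest differences on the arrays be set beside AKR1C4, whose probe set stayed in the background. The sequences are the 250 bases before the RefSeq start of each gene (GRCh38.p14), written 5′ to 3′ on the strand of the gene. Capitals mark ATTGGTTAACCA, the longest run shared by all windows of AKR1C1, AKR1C2 and AKR1C3. Its first letters are the CCAAT box read on the other strand.
AKR1C1, plus strand, chr10:4963165-4963414: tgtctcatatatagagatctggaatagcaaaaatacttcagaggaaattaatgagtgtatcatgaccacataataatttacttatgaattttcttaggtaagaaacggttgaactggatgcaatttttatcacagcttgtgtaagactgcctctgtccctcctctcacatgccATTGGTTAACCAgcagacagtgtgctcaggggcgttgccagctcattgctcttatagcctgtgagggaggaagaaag
AKR1C3, plus strand, chr10:5048531-5048780: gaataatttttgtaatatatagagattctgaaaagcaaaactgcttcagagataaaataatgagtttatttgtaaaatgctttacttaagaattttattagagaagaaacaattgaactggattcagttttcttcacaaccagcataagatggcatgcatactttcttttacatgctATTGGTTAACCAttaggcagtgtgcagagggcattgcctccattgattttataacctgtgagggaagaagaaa
AKR1C4, plus strand, chr10:5196587-5196836: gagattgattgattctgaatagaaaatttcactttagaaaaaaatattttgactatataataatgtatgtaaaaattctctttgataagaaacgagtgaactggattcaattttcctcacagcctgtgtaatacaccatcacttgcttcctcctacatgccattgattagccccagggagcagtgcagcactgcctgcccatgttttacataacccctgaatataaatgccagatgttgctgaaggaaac

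The window of AKR1C2 (minus strand, chr10:5003858-5004107) was nearly that of AKR1C1: the pair shared an unbroken run of 245 bases, which no other window in the table held. In a global alignment the identity of AKR1C1 and AKR1C2 was 96.5%. AKR1C1 and AKR1C3 were 71.4% identical, and AKR1C1 and AKR1C4 were 62.3% identical. The marked run began 77 bases before the start in AKR1C1, 81 in AKR1C2 and 73 in AKR1C3, and 86 in a further AKR1C3 window (plus strand, chr10:5094164-5094413). Of 35116 RefSeq windows of this length, 5 held the run, those 4 and 1 of PPFIA2.

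Motifs were searched by their letters on both strands. CCAAT occurred in every window of AKR1C1, AKR1C2 and AKR1C3, in none of AKR1C4, and in 32.0% of all windows. In those AKR1C1, AKR1C2 and AKR1C3 windows it is the start of the marked run. That run was chosen as shared by them, so nothing is read from CCAAT being in each. CCAAT also occurred in 1 AKR1B1 window, 98 bases before the start, but not in the other, nor in AKR1A1 or AKR7A2. TATAAA occurred in the first AKR1C3 window and in AKR1C4, and in 10.7% of all windows. The core of the antioxidant response element to which NRF2 binds, TGACNNNGC, occurred in no AKR1C window and in 10.9% of all windows. AKR7A2 held 3 matches of it in its upstream window. The windows also differed in base composition. G and C made up 40.8% of AKR1C1, 40% of AKR1C2, 32% and 35.6% of the AKR1C3 windows and 36.8% of AKR1C4. They made up 68% and 50.8% of the AKR1B1 windows, 60.4% of AKR1A1 and 78.8% of AKR7A2, beside a median of 58% over all windows. A match is a description of letters and not a bound site. AKR1B10 had no window in the table.

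On the arrays, AKR1C1, AKR1C2, AKR1C3 and AKR1B10 were lower in MCF10.AT1-R, by 3.39-fold to 10.1-fold. AKR1B1, AKR7A2 and AKR1A1 did not pass the threshold, with differences of -0.61, -0.18 and 0.23, and AKR1C4 was not above background in either line. All values are log2 expression after RMA, so that 1 unit is a doubling, and every difference is MCF10.AT1-R minus MCF10.AT1. Levels are not ranked between genes, since probes differ in brightness. As a measure of background, the 612 negative control probe sets had a 95th percentile between 2.88 and 3.14 on the 5 arrays.

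**Figure D1:**
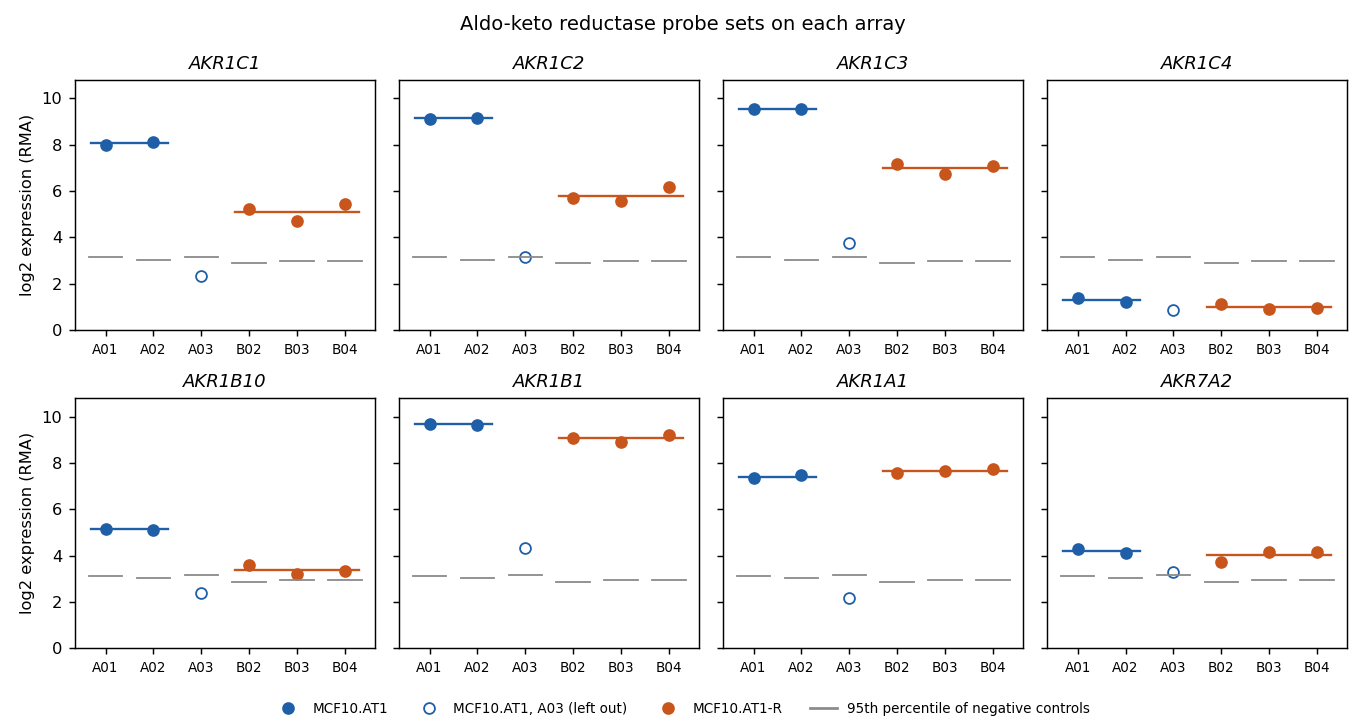
Log2 expression (RMA, vertical axis) of the 8 aldo-keto reductase probe sets on each array (horizontal axis), with filled points for the 5 arrays compared, an open point for A03, colored lines for line means and gray ticks for the 95th percentile of the negative controls on that array. AKR1C1, AKR1C2, AKR1C3 and AKR1B10 fell in all 3 MCF10.AT1-R arrays, and A03 was the lowest array for all 8 genes.

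AKR1C1, which inactivates progesterone by reducing its side chain ketone, read 8.0 and 8.13 in MCF10.AT1 and 5.20, 4.68 and 5.42 in MCF10.AT1-R. Every MCF10.AT1-R array was below both MCF10.AT1 arrays. The means were 8.06 ± 0.09 (SD, n = 2) and 5.10 ± 0.38 (SD, n = 3), a difference of -2.96 (95% interval -3.57 to -2.35), which left 12.8% of the MCF10.AT1 level. In limma, fitted across all tested probe sets with Benjamini-Hochberg adjustment, the adjusted p was 3.77e-18.

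That fit gave all probe sets a common SD of 0.34, because the filter had removed the least variable ones, and its p-values are therefore very small. When the filter on low expression was used alone, each probe set kept part of its own variance, and the adjusted p of AKR1C1 was 0.00718 in limma. Both values are given for the members below that passed the threshold and for AKR1B1.

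AKR1C2, which reduces the potent androgen dihydrotestosterone to a weak metabolite, had the largest difference of the 8 genes. It read 9.12 and 9.15 in MCF10.AT1 and 5.68, 5.56 and 6.17 in MCF10.AT1-R, with a gap between the lines far wider than the spread within either. Its means of 9.14 ± 0.02 (SD, n = 2) and 5.80 ± 0.32 (SD, n = 3) differed by -3.34 (95% interval -3.95 to -2.72), a 10.1-fold lower level. The adjusted p in limma was 3.46e-23, and 0.00322 with the low-expression filter alone.

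AKR1C3 makes testosterone from androstenedione and also acts as a prostaglandin F synthase. It read 9.55 and 9.53 in MCF10.AT1 and 7.14, 6.73 and 7.06 in MCF10.AT1-R. The difference of the means, 9.54 ± 0.02 (SD, n = 2) and 6.98 ± 0.22 (SD, n = 3), was -2.56 (95% interval -3.17 to -1.95). AKR1C3 thus kept 16.9% of its MCF10.AT1 level, and its lowest MCF10.AT1-R array was still 3.78 above the negative control level of that array. The adjusted p in limma was 2.27e-13, and 0.0052 with the low-expression filter alone.

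AKR1C4, the liver enzyme of bile acid and steroid metabolism, read 1.37 and 1.20 in MCF10.AT1 and 1.12, 0.90 and 0.93 in MCF10.AT1-R. All 5 values were under the negative control level, and its difference of -0.30 is a difference between background readings. It was removed by the low-expression filter, and without a filter its adjusted p was 0.829 in limma.

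The distance between the 3 lowered AKR1C genes also changed. Subtracting one probe set from another on the same array removes the brightness of the array, and the change of this quantity between the lines shows unequal change. AKR1C2 minus AKR1C1 was 1.12 and 1.03 in MCF10.AT1 and 0.48, 0.87 and 0.75 in MCF10.AT1-R, a change of -0.37. AKR1C2 minus AKR1C3 changed by -0.77, and AKR1C1 minus AKR1C3 by -0.40. In each of these pairs the lines did not overlap, and by the means AKR1C2 fell the most and AKR1C3 the least of the 3. Of all single probe sets 23.3% did not overlap in either direction. The pairs share genes and are not independent, and the 95% intervals of the 3 genes overlapped. The changes of the pairs were not tested. The transcripts of these genes are closely similar, and the probe sequences were not analysed here, so signal shared between their probe sets cannot be separated from expression of each gene.

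AKR1B10, which reduces retinaldehyde and is best known from intestine and from some carcinomas, was the fourth gene to fall. It read 5.16 and 5.13 in MCF10.AT1 and 3.59, 3.20 and 3.34 in MCF10.AT1-R. Its means of 5.14 ± 0.02 (SD, n = 2) and 3.38 ± 0.20 (SD, n = 3) differed by -1.76 (95% interval -2.37 to -1.15), which left 29.5%. The MCF10.AT1-R arrays were close to background, with a smallest margin of 0.24 over the negative control level. The adjusted p in limma was 6.02e-06, and 0.0206 with the low-expression filter alone.

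AKR1B1, the aldose reductase that turns glucose into sorbitol, read 9.70 and 9.66 in MCF10.AT1 and 9.09, 8.92 and 9.20 in MCF10.AT1-R. The lines did not overlap, with a gap of 0.45 between the lowest MCF10.AT1 array and the highest MCF10.AT1-R array. The difference was -0.61 (95% interval -1.22 to 0.003), or 65.6% of the MCF10.AT1 level. With the low-expression filter alone the interval was -1.03 to -0.19. The difference did not pass the threshold, with an adjusted p of 0.61 in limma and 0.393 with the low-expression filter alone. The call depended on the variance model, since a variance that follows expression (limma's trend option) gave an adjusted p of 5.53e-08, and 0.00297 when combined with the low-expression filter alone.

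AKR1A1, a general aldehyde reductase, was the single member with a higher mean in MCF10.AT1-R. It read 7.35 and 7.48 in MCF10.AT1 and 7.55, 7.65 and 7.73 in MCF10.AT1-R. The lines did not overlap, but by a gap of 0.07. Its small spread meant that the filter on invariant probe sets removed it, and without a filter the difference was 0.23 (95% interval -0.20 to 0.65), with an adjusted p of 0.871 in limma.

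AKR7A2, which reduces succinic semialdehyde and dialdehydes of aflatoxin, read 4.29 and 4.11 in MCF10.AT1 and 3.73, 4.15 and 4.16 in MCF10.AT1-R. The arrays of the lines overlapped. The difference was -0.18 (95% interval -0.79 to 0.43), with an adjusted p of 0.889 in limma.

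In count, 6 of the 8 members were among the 51457 probe sets tested, and 4 were past an FDR of 5%, each lower in MCF10.AT1-R, where 0.447% of tested probe sets were called lower 0.758% higher and 1.2% in either direction. The lines did not overlap for 6 members in the lower direction, beside 11.1% of all probe sets. The median difference was -1.19 over the 8 members and -0.01 over the tested probe sets, whose 5th and 95th percentiles were -0.58 and 0.57. With the low-expression filter alone, 35 of 67875 probe sets (0.0516%) were called lower, and the same 4 members were among them. The members were chosen with these results known, so nothing is read from these shares.

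**Figure D2:**
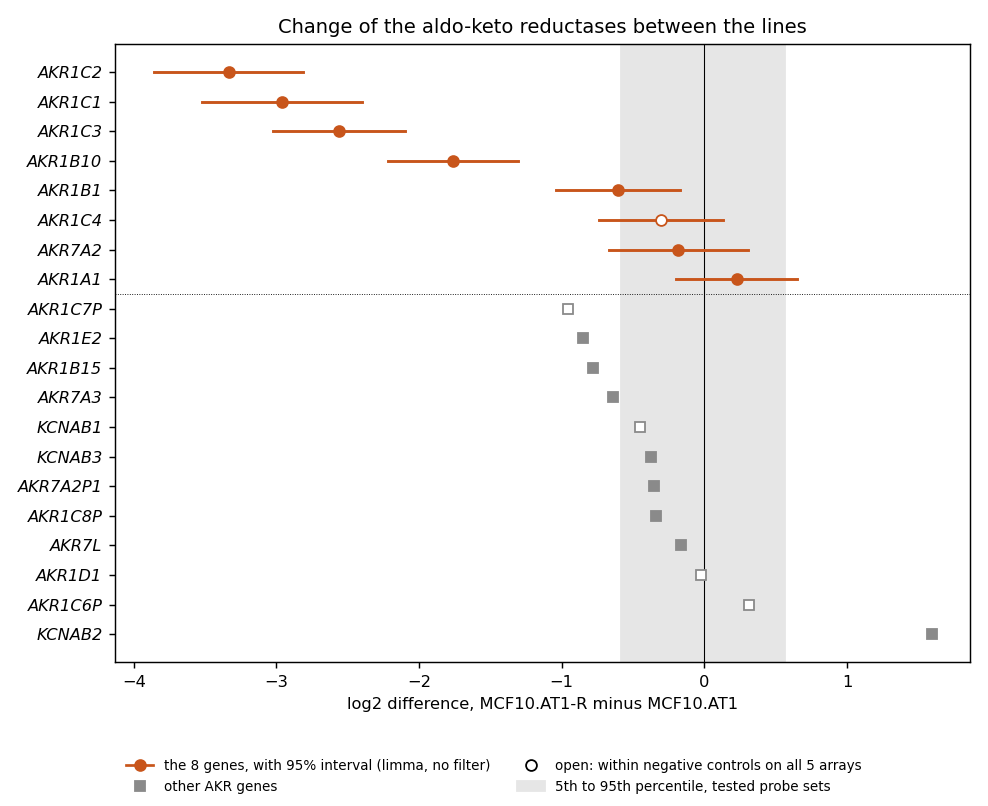
Log2 difference, MCF10.AT1-R minus MCF10.AT1 (horizontal axis), of the 8 aldo-keto reductases (circles, with the 95% interval from limma without a filter) and of 12 further genes of the superfamily (squares), with open symbols for probe sets within the negative controls on all 5 arrays and a gray band from the 5th to the 95th percentile of tested probe sets. AKR1C1, AKR1C2, AKR1C3 and AKR1B10 lay between -3.34 and -1.76, and KCNAB2 lay at 1.59 on the other side.

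Among the 3 MCF10.AT1-R arrays, B03 was the lowest for 6 of the 8 members, including every one of the 4 that were called. B03 was also the lowest array for 52.2% of all probe sets called lower and for 38.1% of all tested probe sets. Without B03 or any other single array the 4 members were still called. Their differences then ranged from -3.12 to -2.75 for AKR1C1, from -3.52 to -3.21 for AKR1C2, from -2.64 to -2.44 for AKR1C3 and from -1.87 to -1.67 for AKR1B10.

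A03 stood apart for the whole table. Its correlation with the other arrays was 0.779 to 0.795, against 0.967 to 0.977 among those 5. On A03 AKR1C1 read 2.33, AKR1C2 3.15, AKR1C3 3.76, AKR1B10 2.40, AKR1B1 4.33, AKR1A1 2.19, AKR7A2 3.28 and AKR1C4 0.86, below every other array of either line for each gene. With A03 counted as an MCF10.AT1 array, the differences shrank to -1.05 for AKR1C1, -1.34 for AKR1C2, -0.64 for AKR1C3 and -0.85 for AKR1B10, with adjusted p-values of 0.777 to 0.871 in limma, and 0% of probe sets were called lower. That of AKR1B1 turned to 1.17. When limma weighted the 6 arrays by their quality, A03 received a weight of 0.0679, A01 0.966, A02 5.46 and the MCF10.AT1-R arrays 1.1 to 1.65. The MCF10.AT1 level in that fit thus rests largely on A02. The 4 members were called again, with adjusted p-values of 8.08e-06 to 0.000319 in limma, as were 1.4% of probe sets in the lower direction.

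The labelled cell type was checked by markers. All 9 mammary epithelial and basal markers were above background on all 5 arrays, all 9 were higher in every MCF10.AT1-R array, and 7 of them were past an FDR of 5% in limma (KRT5, KRT6A, KRT14, KRT17, TP63, CDH1 and SFN), with a summed log2 level of 65.2 to 66.0 in MCF10.AT1 and 81.1 to 82.1 in MCF10.AT1-R. Over all tested probe sets, 12.9% were higher in every MCF10.AT1-R array, 0.758% were called higher and 0.447% were called lower. Of 8 fibroblast markers 1 was called, DCN with a difference of -2.15 and B03 at background. Their summed level was 32.8 to 33.1 in MCF10.AT1 and 30.1 to 32.2 in MCF10.AT1-R, and LUM and PDGFRB were at background on all 5 arrays. Of 3 adipocyte markers FABP4 was called at -1.93, with sums of 9.80 to 11.6 and 6.81 to 8.12 and ADIPOQ at background. Of 5 leukocyte markers CD14 was called at -1.12, with sums of 14.3 to 16.1 and 15.0 to 15.7 and PTPRC at background. Of 3 endothelial markers PECAM1 was called at -1.12, with sums of 11.8 to 12.0 and 10.2 to 10.9. None of 4 hepatocyte markers was called, with sums of 10.1 to 11.7 and 10.4 to 12.0 and ALB at background. Leaving out A01 or A02 ended the calls of CDH1, SFN, CD14 and PECAM1 in limma, with adjusted p-values of 0.0889 to 0.466, and those of CD14 and PECAM1 were also lost without B02 or B03 and that of CD14 without B04. The part of these differences in those of the aldo-keto reductases was not tested. In RNA from whole cultures, fewer cells with a transcript and less of it per cell cannot be told apart, and the line cannot be told apart from whatever else sets the arrays named A apart from those named B.

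The rest of the superfamily was looked up next. Of 12 further genes with a probe set, 10 were tested, none was called lower in limma (3 at an unadjusted p under 0.05) and 1 was called higher, with a median difference of -0.36. Among all tested probe sets 0.447% were called lower and 0.758% higher. AKR1E2, next to the AKR1C genes, read 4.02 and 3.84 in MCF10.AT1 and 3.39, 2.92 and 2.93 in MCF10.AT1-R, a difference of -0.85 with an adjusted p of 0.235 in limma. AKR1B15, the close copy of AKR1B10, differed by -0.78 (adjusted p = 0.341 in limma), and AKR7A3 by -0.64 (adjusted p = 0.561 in limma). In these 3 genes the lines did not overlap, but MCF10.AT1-R arrays read at or near background. Of the 12 genes, 4 were lower and 2 higher in every MCF10.AT1-R array. Over all probe sets 11.1% were lower in this way and 23.3% did not overlap in either direction. The lowest difference, -0.96 for the pseudogene AKR1C7P, lay within the negative controls on all 5 arrays.

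KCNAB2 was the gene called higher. It encodes a beta subunit of voltage-gated potassium channels that has the fold of an aldo-keto reductase. It read 4.74 and 5.03 in MCF10.AT1 and 6.42, 6.38 and 6.62 in MCF10.AT1-R, a difference of 1.59 with an adjusted p of 8.68e-05 in limma, and 0.0294 with the low-expression filter alone. Without A01 it was not called (adjusted p = 0.0621 in limma). The other beta subunit genes, KCNAB1 and KCNAB3, differed by -0.45 and -0.37, with KCNAB1 at background on all 5 arrays.

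The neighbours of the genes were examined in RefSeq gene order, taking 5 measured genes on each side. None of the 40 neighbours of the AKR1C genes, the AKR1B genes, AKR7A2 and AKR1A1 was called in limma, of which 24 were tested (0 of 24, beside 1.2% of all tested probe sets, and 5 at an unadjusted p under 0.05). Of the 40, 15 read within the negative controls on all 5 arrays. Along chromosome 10 the differences ran from AKR1E2 at -0.85 and the pseudogene AKR1C6P at 0.32, which read at background, to AKR1C1 at -2.96, AKR1C2 at -3.34 and AKR1C3 at -2.56, and then to AKR1C8P at -0.34. Beyond AKR1C4, UCN3 differed by 0.20, TUBAL3 by -0.78 within the background, and NET1, a guanine nucleotide exchange factor for RhoA, by 0.52. The 10 neighbours of the AKR1C genes had a median difference of 0.10, with 3 lower and 4 higher in every MCF10.AT1-R array, beside 23.3% of all probe sets in either direction. Of these 7, LINC00703, AKR1C6P, AKR1C7P and TUBAL3 read within the negative controls on all 5 arrays. The same held for 6 of the 10 neighbours in all, so their median rests largely on background readings. Next to the AKR1B genes on chromosome 7, AKR1B15 differed by -0.78, and SLC35B4 and BPGM on either side differed by -0.39 and 0.05.

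**Figure D3:**
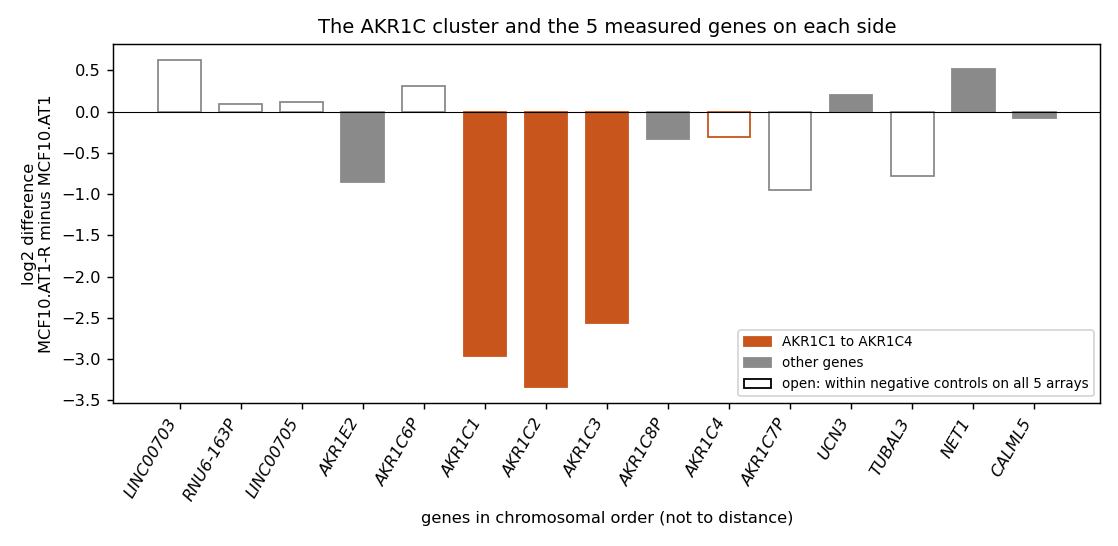
Log2 difference, MCF10.AT1-R minus MCF10.AT1 (vertical axis), of the AKR1C genes and the 5 measured genes on each side in chromosomal order (horizontal axis, not to distance), with open bars for probe sets within the negative controls on all 5 arrays. AKR1C1, AKR1C2 and AKR1C3 stood at -2.96, -3.34 and -2.56 between neighbours that ranged from -0.96 to 0.62. Both ends of that range, AKR1C7P and LINC00703, were open bars.

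Genes known as NRF2 targets outside the family were listed for comparison, since AKR1C1, AKR1C2, AKR1C3 and AKR1B10 are counted among such targets. All 20 were above background in both lines, 14 were tested, and 1 was called, beside 1.2% of all tested probe sets: the epoxide hydrolase EPHX1, with none called higher in limma (6 lower and 0 higher at an unadjusted p under 0.05). EPHX1 read 6.65 and 6.30 in MCF10.AT1 and 5.69, 5.01 and 5.13 in MCF10.AT1-R, a difference of -1.20 with an adjusted p of 0.0148 in limma. It was not called with the low-expression filter alone (adjusted p = 0.209), nor in limma without A01, A02, B03 or B04. For 10 of the 20 genes every MCF10.AT1-R array was below both MCF10.AT1 arrays, for 2 every one was above, and the median difference was -0.25. Over all probe sets 11.1% were lower in this way and 23.3% did not overlap in either direction.

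Among those 10, FTL, the ferritin light chain, read 10.25 and 10.20 in MCF10.AT1 and 9.22, 8.97 and 9.30 in MCF10.AT1-R, a difference of -1.06 just short of the threshold (adjusted p = 0.0539 in limma). SLC7A11, the cystine importer, differed by -0.96 (adjusted p = 0.119 in limma), and NQO1, the quinone reductase often used as the standard NRF2 target, by -0.51 (adjusted p = 0.733 in limma). These 3 were picked after their values were seen. At the other end PGD, of the pentose phosphate pathway, differed by 0.50. With limma's trend option 8 of the 14 NRF2 targets tested were called, against 2.68% of all tested probe sets in either direction. The regulators themselves differed by 0.16 for NFE2L2, which encodes NRF2, and by -0.14 for KEAP1, and both overlapped between the lines.

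Other enzymes that reduce or oxidize carbonyl groups were listed next. Of 26 with a probe set, 23 were tested, 1 was called lower and none higher in limma (5 and 2 at an unadjusted p under 0.05), with a median difference of -0.06. Over all tested probe sets 0.447% were called lower and 0.758% higher. DHRS9, a retinol and steroid dehydrogenase, read 4.88 and 4.73 in MCF10.AT1 and 3.62, 3.10 and 2.93 in MCF10.AT1-R, with B04 at background. The difference of DHRS9 was -1.59 with an adjusted p of 9.11e-05 in limma. With the low-expression filter alone its adjusted p was 0.078 and it was not called. The highest difference was 0.92 for ALDH1A3, which makes retinoic acid from retinaldehyde.

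Genes of the pathways in which the aldo-keto reductases find substrates were followed in 3 lists. For comparison, 0.758% of all tested probe sets were called higher and 0.447% lower, or 1.2% in either direction. Of 14 enzymes of steroid metabolism 7 were tested and none was called in limma (2 at an unadjusted p under 0.05), with a median difference of 0.03 and a range from -0.30 for STS, the steroid sulfatase, to 0.85 for HSD17B12. Of 9 prostaglandin genes 6 were tested, 1 was called higher and 1 lower. PTGS2, the inducible cyclooxygenase that starts prostaglandin synthesis, read 3.20 and 3.34 in MCF10.AT1 and 5.19, 5.62 and 5.22 in MCF10.AT1-R. Both MCF10.AT1 values were close to the negative control level, 3.14 on A01 and 3.03 on A02. The difference of PTGS2 was 2.07, with an adjusted p of 1.86e-08 in limma and 0.0139 with the low-expression filter alone.

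HPGD, which inactivates prostaglandins, moved the other way. It read 5.29 and 5.26 in MCF10.AT1 and 4.13, 3.68 and 3.85 in MCF10.AT1-R, a difference of -1.39 with an adjusted p of 0.00154 in limma. It lost the call with the low-expression filter alone (adjusted p = 0.0612), and leaving out A01 or A02 also ended it, with adjusted p-values of 0.0976 and 0.0972 in limma. The median difference of the 9 prostaglandin genes was 0.02, and PTGES, a prostaglandin E synthase, also differed by 0.02. Of 6 enzymes of polyols and sugar aldehydes, in whose pathways AKR1B1 acts, 4 were tested and none was called in limma, nor passed an unadjusted p of 0.05. Their differences ranged from -0.11 for TPI1 to 0.38 for CRYL1, and SORD, which takes the sorbitol made by AKR1B1 to fructose, differed by 0.07.

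**Figure D4:**
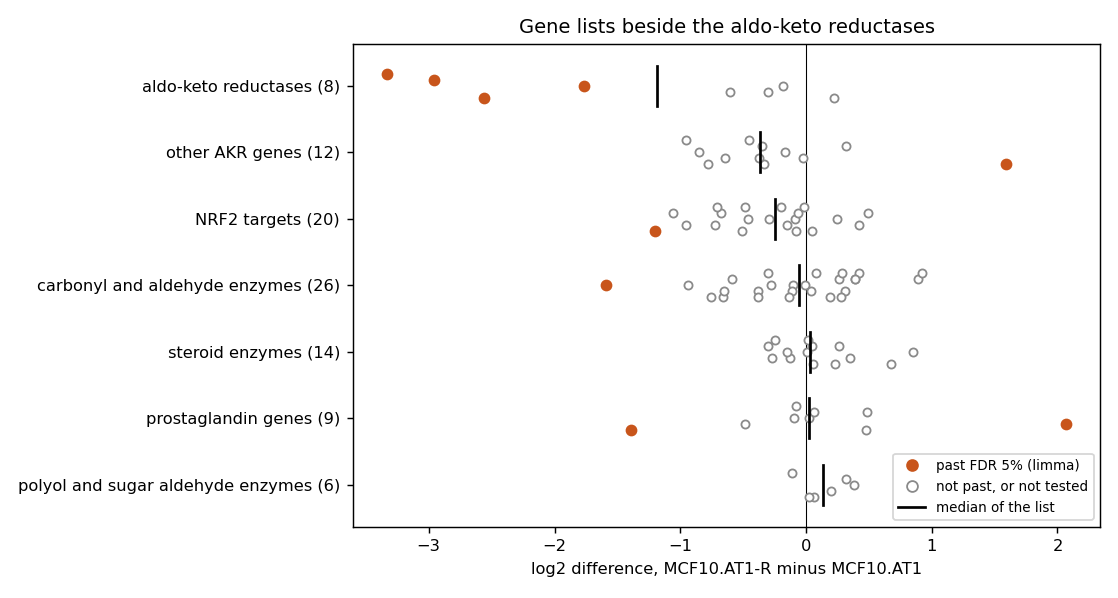
Log2 difference, MCF10.AT1-R minus MCF10.AT1 (horizontal axis), of each gene of the lists (rows, with the number of genes), with filled points for genes past an FDR of 5% in limma, open points for those not past it or not tested, and a bar at the median. The median was -1.19 for the aldo-keto reductases and between -0.36 and 0.13 for the 6 other lists.

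The profiles most like that of AKR1C2 were sought among 35765 tested profiles, 1 per gene symbol, by the Euclidean distance over the 5 arrays after each was centred on its own mean. AKR1C1 was the closest, at a distance of 0.50, PMP22 followed at 0.66 and AKR1C3 at 0.94. AKR1B10 ranked 20 (1.80) and AKR1B1 ranked 1142 (3.00). The 5 closest genes outside the family were PMP22, CALB2, LOC100506844, METTL7A and PDK4.

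PMP22, a membrane protein of myelin and epithelial junctions, read 7.47 and 7.33 in MCF10.AT1 and 4.59, 3.82 and 4.95 in MCF10.AT1-R, with its lowest value on B03 like AKR1C2. CALB2, the calcium-binding calretinin, read 6.18 and 6.09 in MCF10.AT1 and 2.68, 3.52 and 2.77 in MCF10.AT1-R, with B02 and B04 at background. PDK4, a kinase that holds back pyruvate dehydrogenase, read 4.15 and 3.97 in MCF10.AT1 and was at background in all 3 MCF10.AT1-R arrays, so its difference is known only as far as the -1.13 found with values raised to the negative control level. LOC100506844 differed by -2.43 and METTL7A by -2.27. Being picked for this likeness, these genes had to be lower in MCF10.AT1-R, and the likeness is a description of 5 arrays of 2 lines.

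**Figure D5:**
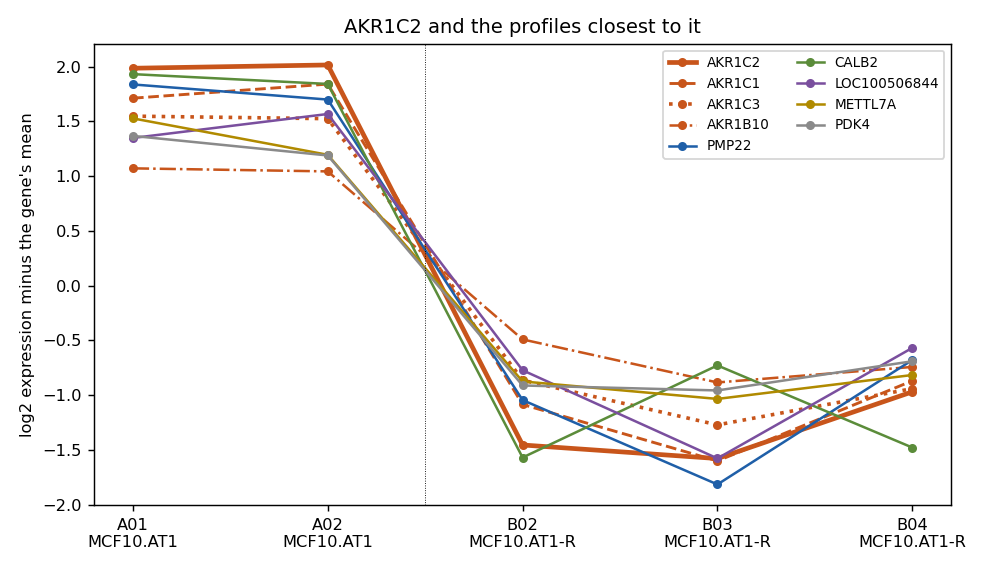
Log2 expression minus the mean of the gene over the 5 arrays (vertical axis) on each array (horizontal axis) for AKR1C2, AKR1C1, AKR1C3 and AKR1B10 and for the 5 closest genes outside the family. All profiles step down between MCF10.AT1 and MCF10.AT1-R, and among the MCF10.AT1-R arrays AKR1C2, AKR1C1, AKR1C3, AKR1B10, PMP22, LOC100506844, METTL7A and PDK4 were lowest on B03 while CALB2 was highest there.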

How the data were processed

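Total RNA of MCF10.AT1 and MCF10.AT1-R was hybridized to Clariom D arrays, 3 per line. The log2 values were deposited by the authors after RMA in affy and oligo, 1 for every probe set on every array. The genome build is not given in the sources used here. Array names give the line, by the study's own plot of the arrays, and no replicate number.

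A probe set entered the test if its mean over the 5 arrays exceeded the median (1.88) and its SD the lowest 25% (0.18), since the study removed low and invariant genes without stated limits. These were fitted with lmFit and eBayes (limma 3.58.1, R 4.3.3), adjusted by Benjamini-Hochberg over all 51457 and called at an FDR of 5%. In other lists the probe set with the highest mean stands for a gene. Members and lists were chosen with earlier results of these data known. Of each list, genes called and those with the highest and lowest difference are named, with the 5 profiles closest to AKR1C2. Tried alternatives were the arrays, array weights, filters, variance models, normalization, a floor at background and averaged probe sets. Upstream sequences are from RefSeq (GRCh38.p14), where 7 of the 8 genes matched. Protein sequences were not used here. A marker gene planned for the cell type check is not reported here. The number of arrays limits the precision.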

Additional observations from a re-analysis of the deposited data

How the results depend on the processing

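The calls of AKR1C1, AKR1C2, AKR1C3 and AKR1B10 held in 15 of 16 alternatives. The exception was A03 counted as MCF10.AT1, where 0 members were called. Lines then did not overlap for 1 member instead of 7, and on the 5 arrays 23.3% of all probe sets did not overlap. The share over the 6 arrays was not taken. In that fit 26 probe sets (0.0447%) were called in all. Among them were 0 of the other aldo-keto reductases, 0 carbonyl enzymes, 0 NRF2 targets and 0 substrate genes. AKR1B1 passed with the trend option.

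Over all tested probe sets, 620 calls (1.2%) became 1744 (3%) with array weights and 182 (0.268%) with the low-expression filter alone. No filter gave 177 (0.13%), the trend option 1377 (2.68%) and that option with the low-expression filter alone 1086 (1.6%). Robust eBayes gave 665 of 51457, quantile normalization of the 5 arrays 618 of 51473 and values raised to background 556 of 39489. Leaving out 1 array gave 271 (without A02) to 595 (without B03). The counts of list genes that follow are in either direction. They are out of 26 carbonyl enzymes, 20 NRF2 targets, 29 substrate genes, 12 other aldo-keto reductases and 40 neighbours, not all of them tested. Nothing is read from these counts. Carbonyl enzymes called were 3 with array weights, 0 with the low-expression filter alone and 0 with no filter. They were 5 with the trend option, 6 with both and 3 with values raised to background. NRF2 targets called were 0 with the low-expression filter alone, 0 with no filter, 8 with the trend option, 8 with both, 2 with robust eBayes, 2 after quantile normalization of the 5 arrays and 3 with values raised to background, and 0 to 1 when 1 array was left out. Substrate genes called were 1 with the low-expression filter alone and 1 with no filter, and 1 to 2 when 1 array was left out. KCNAB2 was not called without A01, so the other aldo-keto reductases gave 0 to 1. Neighbours called were 1 with the trend option and 1 with both. Where 1 MCF10.AT1 array remained, spread within a line came only from MCF10.AT1-R. In those fits limma pooled it into a common SD over all tested probe sets. The causes were not tested. No paired analysis was possible because the columns carry no replicate numbers.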

Other observations

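Pseudogenes of AKR1B1 were looked up after the values of the family had been seen. Of 6 with a probe set, 5 were lower in every MCF10.AT1-R array, beside 11.1% of all probe sets, with a median difference of -0.58, a range of -0.91 to 0.32, 0 called in limma and 2 at an unadjusted p under 0.05. Of these 5, AKR1B1P2 and AKR1B1P8 read within the negative controls on all 5 arrays, and AKR1B1P4 in the MCF10.AT1-R arrays. AKR1B10P1, AKR1B10P2, AKR1C5P and AKR1D1P1 overlapped between the lines and read within the negative controls on all 5 arrays. AKR1B1P7 read 3.77 and 3.65 in MCF10.AT1 and 3.11, 3.15 and 3.31 in MCF10.AT1-R, while A03 read 5.32. AKR1B1P1 read 4.06 and 3.55 in MCF10.AT1 and 3.18, 2.78 and 2.75 in MCF10.AT1-R. On A03, where AKR1B1 read its lowest value, both pseudogenes read their highest.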
